A study of Mus musculus with 2 samples.

Results

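The genes described here are Hcn2, Hcn3 and Hcn4, which encode subunits of hyperpolarization-activated cyclic nucleotide-gated (HCN) channels, and Pex5l, which encodes their auxiliary protein TRIP8b. They were chosen by gene symbol and matched by Ensembl gene identifier, and they are 4 of 55536 annotated genes. Further family members are not analysed here, so every HCN sum or share below covers these 3 HCN genes only.

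The study holds total RNA sequencing of hippocampus from female B6CASTF1/J mice at 2 months of age. B6CASTF1/J animals are the first-generation offspring of a C57BL/6J and a CAST/EiJ parent, so each carries a wild-derived CAST genome beside the laboratory one. There were 2 libraries, biological replicates 2 and 1, each from 300 ng of RNA, and they form a single group with no treated or mutant arm. The labels list a tissue record for each replicate under a common donor record and do not say whether 2 animals were used, so part of the spread between the libraries may be technical. With 1 group the measurements are levels, transcript shares and the difference between the libraries, and no test between conditions could be made.

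HCN channels are opened by hyperpolarization of the membrane, and the inward cation current they carry helps set resting potential, input resistance and rhythmic firing. Each channel is a tetramer of subunits, and a cyclic nucleotide-binding domain in the cytoplasmic C-terminus lets cyclic AMP ease opening to an extent that depends on the subunit. TRIP8b is a brain-enriched relative of the peroxisomal import receptor Pex5; it binds the C-terminus of HCN subunits, controls how many channels reach the surface and reduces their response to cyclic AMP. Its splice forms differ near the N-terminus and are known to act on channel trafficking in opposite directions.

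The tissue label was checked against marker genes. All 4 neuronal markers and all 6 markers of hippocampal fields were detected (at least 1 TPM in both libraries, where TPM is a gene's share of all transcripts, corrected for length, on a scale with the same total in every library), and the field markers summed to 1174 TPM in replicate 2 and 1176 TPM in replicate 1. Hpca alone gave 944 and 953 TPM of the field sum in replicates 2 and 1. The next highest field marker, Neurod6, had 66.4 and 64.7 TPM. Markers of oligodendrocytes summed to 951 and 862 TPM and those of astrocytes to 1215 and 1161 TPM in replicates 2 and 1. Thalamic markers summed to 29.4 and 26.1 TPM in the same order. The 3 choroid plexus markers differed most between the libraries, at 71.8 TPM in replicate 2 and 127 TPM in replicate 1, nearly all of it Ttr. The libraries held 30691917 and 29490900 expected read counts on annotated genes in replicates 2 and 1.

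The extreme C-terminus of HCN subunits is the short motif that the TRIP8b repeat domain grips, so the last 30 coding bases before the stop codon are shown for each HCN gene, with the final 3 codons in capitals. The sequences are from the GENCODE M21 transcripts of GRCm38 (mm10), read 5′ to 3′ on the gene's own strand. They lie at chr10:79735508-79735537 on the + strand for Hcn2, chr3:89147602-89147631 on the − strand for Hcn3 and chr9:58860731-58860760 on the + strand for Hcn4.
Hcn2: tctgcgcgctcgcgcctctctTCCAACTTG
Hcn3: cccagaggtccccaaatttctGCCAACATG
Hcn4: ccagtacgctccaaactgccgTCTAATTTA
Hcn2 and Hcn4 differed in all 3 of these codons yet encoded the same 3 residues. Hcn3 differed from Hcn2 in 2 codons and in 2 encoded residues, and from Hcn4 in 3 codons and again 2 residues. Over the whole coding sequence the identity of aligned bases was 79.0% between Hcn2 and Hcn4 (2581 aligned bases), 77.7% between Hcn3 and Hcn4 (2322) and 74.7% between Hcn2 and Hcn3 (2241). The coding sequences were 2589 bases in Hcn2, 2337 in Hcn3 and 3603 in Hcn4. With each transcript read on its own strand, none of the 4 genes shared a stretch of 100 bases (the read length) with another gene. Opposite strands were not searched, and Hcn3 and Pex5l share exon bases with genes that lie there.

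Pex5l was the most abundant of the 4 genes, and its TPM exceeded that of Hcn2, Hcn3 and Hcn4 added together. Gene levels and the ratios from them include non-coding transcripts, and coding ones held 75.7 ± 0.113% of Pex5l TPM (SD, n = 2). Among the channel genes Hcn2 led by far, Hcn3 was present at a low level, and Hcn4 lay below 1 TPM. This order held in both libraries and in both of the authors' quantifications. In bulk tissue, a low level in many cells and a high level in few cells, or fewer cells of a type and less RNA per cell, cannot be told apart.

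Hcn2, a subunit with strong cyclic AMP sensitivity that is widespread in the brain, lies on chromosome 10, 79716634 to 79736108, + strand (ENSMUSG00000020331.9). It had 46.2 TPM in replicate 2 and 47.6 TPM in replicate 1, from 3236 and 3202 expected counts, a mean of 46.9 ± 0.990 TPM (SD, n = 2). The authors' intervals of 43.4 to 46.5 TPM in replicate 2 and 44.7 to 47.8 TPM in replicate 1 overlapped. This placed Hcn2 at rank 2017 of 22015 nuclear protein-coding genes, whose median was 3.25 TPM and of which 12773 (58.0%) were detected.

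Hcn3, a subunit known for little response to cyclic AMP, lies on chromosome 3, 89146074 to 89160196, − strand (ENSMUSG00000028051.10). It had 3.98 TPM in replicate 2 and 5.81 TPM in replicate 1 (mean 4.89 ± 1.29 TPM, SD, n = 2), which is close to the middle of the protein-coding genes at rank 10106. The intervals of 3.63 to 5.58 TPM in replicate 2 and 4.63 to 7.42 TPM in replicate 1 overlapped. The gap was in the TPM scale more than in the reads: expected counts were 299 in replicate 2 and 308 in replicate 1, while TPM was 1.46-fold higher in replicate 1.

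Hcn4, the slowly activating subunit best known from the cardiac pacemaker, lies on chromosome 9, 58823412 to 58863175, + strand (ENSMUSG00000032338.9). It had 0.650 TPM in replicate 2 and 0.830 TPM in replicate 1 (mean 0.740 ± 0.127 TPM, SD, n = 2), from 88 and 109 expected counts. With so few reads its intervals were wide, 0.503 to 0.767 TPM in replicate 2 and 0.669 to 0.972 TPM in replicate 1, and they overlapped. Of 4 cardiac muscle markers, 1 (Actn2, which neurons also express) was detected by the rule of 1 TPM in both libraries, which Hcn4 itself did not meet. Myh6 and Tnnt2 had means of 1.05 and 0.825 TPM, above that of Hcn4, and Myl2 had 0.245 TPM.

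Pex5l lies on chromosome 3, 32949408 to 33143247, − strand (ENSMUSG00000027674.16). It had 114 TPM in replicate 2 and 116 TPM in replicate 1, from 7043 and 6917 expected counts, a mean of 115 ± 1.85 TPM (SD, n = 2). The intervals, 108 to 115 TPM in replicate 2 and 110.4 to 117 TPM in replicate 1, overlapped. Pex5l ranked 616 among the protein-coding genes, above 97.2% of them.

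**Figure D1:**
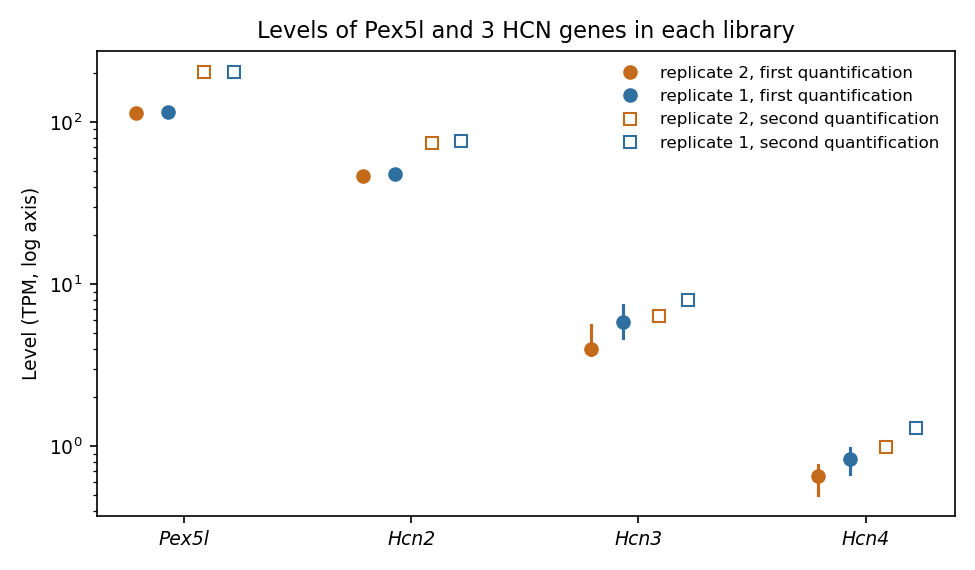
Level of each gene in TPM (log axis), with filled circles for the first quantification, lines for the authors' interval, open squares for the second quantification, and replicate 2 left of replicate 1. The 4 genes keep the order Pex5l, Hcn2, Hcn3, Hcn4 in every column, with Pex5l at 114 and 116 TPM and Hcn4 at 0.650 and 0.830 TPM in the first quantification.

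Each neighbouring step in that order was taken as a ratio of TPM within a library, and each exceeded 3 SD of the ratio over the libraries. Pex5l stood 2.45-fold above Hcn2, with log2 ratios of 1.30 in replicate 2 and 1.29 in replicate 1 (mean 1.29 ± 0.01, SD, n = 2). Hcn2 stood 9.76-fold above Hcn3, with log2 ratios of 3.54 and 3.04 in replicates 2 and 1 (3.29 ± 0.36). Hcn3 stood 6.55-fold above Hcn4, with log2 ratios of 2.61 and 2.81 (2.71 ± 0.14). The step from Pex5l to Hcn2 was thus the steadiest and the step from Hcn2 to Hcn3 the most variable of the 3. Across the ends of the channel genes, Hcn2 exceeded Hcn4 by 6.15 in replicate 2 and 5.84 in replicate 1 on the log2 scale (6.00 ± 0.22), or 63.9-fold.

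Of the summed TPM of the 3 HCN genes, Hcn2 supplied 90.9% in replicate 2 and 87.8% in replicate 1 (89.3 ± 2.21%, SD, n = 2). Hcn3 supplied 7.82% in replicate 2 and 10.7% in replicate 1. Hcn4 supplied 1.28% in replicate 2 and 1.53% in replicate 1. The sum itself was 50.9 TPM in replicate 2 and 54.3 TPM in replicate 1, and Pex5l exceeded it 2.19-fold (log2 ratios 1.16 in replicate 2 and 1.10 in replicate 1, mean 1.13 ± 0.04, SD, n = 2).

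The second quantification, which per the accompanying notes assigned reads to transcripts without a genome alignment, gave higher TPM for all 4 genes. Pex5l had 203 and 204 TPM in replicates 2 and 1, Hcn2 73.8 and 76.6 TPM, Hcn3 6.40 and 7.96 TPM, and Hcn4 0.995 and 1.30 TPM. The fold over the first quantification was 1.77 for Pex5l, 1.60 for Hcn2, 1.55 for Hcn4 and 1.47 for Hcn3. The median over 12934 protein-coding genes was 1.71, with a 10th to 90th percentile range of 1.46 to 2.25, so the scale differed between the tables as a whole. Ratios between the genes are therefore firmer than the absolute levels.

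None of the 4 genes differed between the libraries by a log2 ratio of 1 or more. Over 15509 genes at a mean of at least 1 CPM (counts divided by library size, not corrected for length), 82 did, or 0.529%. The log2 ratio of replicate 2 to replicate 1, from counts scaled for library size, was −0.04 for Pex5l with a counting interval of −0.08 to 0.01. It was −0.05 for Hcn2 (−0.12 to 0.02), −0.11 for Hcn3 (−0.34 to 0.13) and −0.37 for Hcn4 (−0.79 to 0.05). All 4 intervals, which are exact 95% intervals and cover counting error only, held 0. The genes' deposited TPM intervals also overlapped in every case, against 662 of 15422 genes (4.29%) whose intervals were separate. Each difference is of 1 library against 1 library and has no replicate check. The ratio for Hcn4 was larger in size than that of 92.5% of genes, and it was the one with the fewest counts behind it. The choroid plexus marker Ttr was also lower in replicate 2 (log2 ratio −0.88), while Kl (−0.15) and Sostdc1 (−0.02) differed little. Any part of choroid plexus RNA in the ratios of the 4 genes was not tested.

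Hcn2 and Hcn4 were each read from a single transcript. Hcn2 has 2 annotated transcripts with the same coding sequence, which differ by a 106-base intron in the 3′ untranslated region at chr10:79735873-79735978. All 3236 and 3202 counts in replicates 2 and 1 were assigned to the unspliced form, Hcn2-202, and none to the spliced form, Hcn2-201, in both quantifications. The forms could be separated by reads, since 200 windows of 100 bases belonged to Hcn2-202 alone and 94 to Hcn2-201 alone. Hcn4 has 1 annotated transcript of 6118 bases.

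For Hcn3 in the first quantification, the coding transcript was equal in the libraries and the difference in gene TPM lay in short non-coding transcripts. Hcn3-201, the only coding one of its 4 transcripts, had 3.23 TPM in each library, from 285 counts in replicate 2 and 274 in replicate 1. The other 3 summed to 0.740 TPM in replicate 2 and 2.57 TPM in replicate 1, from 13.6 and 34.1 counts. They are included in the Hcn3 pair ratios and HCN shares given above. Because they are short, these few counts weigh heavily in TPM: Hcn3-201 took 81.4% of the gene's TPM in replicate 2 and 55.7% in replicate 1 but 92.2% of its counts on average. The largest single shift was in Hcn3-204, a processed transcript of 627 bases, with 0.170 counts in replicate 2 and 12.8 counts in replicate 1. The retained-intron form Hcn3-203 had 13.4 and 16.4 counts in replicates 2 and 1. None of the 4 transcripts had separate intervals between the libraries. In the second quantification Hcn3-201 had 5.0 TPM in replicate 2 and 5.56 TPM in replicate 1.

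**Figure D2:**
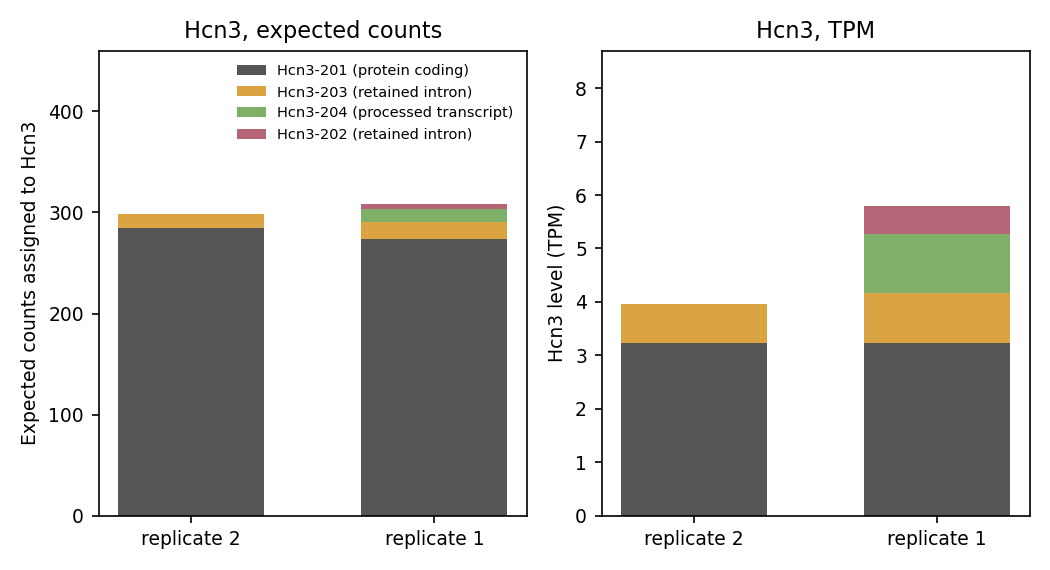
Expected counts (left) and TPM (right) assigned to each Hcn3 transcript in the first quantification, stacked, with replicate 2 left of replicate 1. The total counts are alike, 299 and 308, while the TPM columns differ at 3.98 and 5.81, and the coding transcript Hcn3-201 (dark) is 3.23 TPM in each.

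Hcn3 shares 711 exon bases with Pklr, the liver and red cell pyruvate kinase gene on the opposite strand. Pklr had 0 counts in both libraries in the first quantification, below the 3 counts taken as the detection floor.

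Pex5l had the richest transcript pattern, with 12 annotated transcripts, 9 of them coding, over 17 separate exon regions. Those that begin at the upstream (distal) first exon held 57.3% of the gene's TPM in replicate 2 and 58.0% in replicate 1 (57.6 ± 0.532%, SD, n = 2), and those that begin at the downstream (proximal) start held the remaining 42.4 ± 0.532%. Coding transcripts held 75.6% in replicate 2 and 75.8% in replicate 1. In the first quantification the split was the same in both libraries to within about 1 percentage point, but it differed between the quantifications. In the second, distal transcripts held 42.0 ± 1.78% of TPM and proximal ones 46.5 ± 2.69% (SD, n = 2). Pex5l-203, with an internal start, held the other 11.5 ± 0.912% there. Of expected counts in the first quantification, the distal share was 49.9% and the proximal share 50.1%, so a distal majority was seen only in TPM of the first quantification.

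The parts of the coding sequence that set the Pex5l forms apart are shown 5′ to 3′ on the − strand of GRCm38 (mm10), from the GENCODE M21 transcripts, with a start codon in capitals. They are the distal first coding exon at chr3:33142849-33142869, the proximal first coding exon at chr3:33081976-33082068, its shorter version at chr3:33081976-33081993, a 72-base exon at chr3:33080465-33080536 and a 105-base exon at chr3:33024696-33024800.
Distal first coding exon: ATGtaccagggacacatgcag
Proximal first coding exon: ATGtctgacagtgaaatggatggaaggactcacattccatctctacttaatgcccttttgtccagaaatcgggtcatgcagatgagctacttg
Short proximal first coding exon: ATGcagatgagctacttg
72-base exon: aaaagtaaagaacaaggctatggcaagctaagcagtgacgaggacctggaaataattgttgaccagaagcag
105-base exon: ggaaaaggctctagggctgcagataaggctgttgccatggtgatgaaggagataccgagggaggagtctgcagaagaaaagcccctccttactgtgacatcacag
The short proximal version is the 3′ end of the longer one, with translation annotated from a downstream start codon. The 72-base and 105-base exons keep the reading frame. All coding forms except Pex5l-203, which starts further downstream, join these pieces to the same following exons (Pex5l-204 with an acceptor 3 bases upstream at 1 of them), among them those for the repeat domain that binds HCN subunits.

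Pex5l-206 (ENSMUST00000108226.7) led in the first quantification with 32.9% of the gene's TPM in replicate 2 and 33.8% in replicate 1 (33.3 ± 0.645%, SD, n = 2). It joins the distal first coding exon directly to the shared exons, skipping both the 72-base and the 105-base exon, and has 1701 coding bases. It was the only coding transcript with the distal start and made up 43.5% of coding Pex5l TPM in replicate 2 and 44.6% in replicate 1 (44.0 ± 0.786%).

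Pex5l-205 (ENSMUST00000108225.9) followed with 24.1% in replicate 2 and 24.5% in replicate 1 (24.3 ± 0.262%). It has the proximal start and the 72-base exon, lacks the 105-base exon, and has 1845 coding bases. Pex5l-208 and Pex5l-201 have the same coding sequence and were assigned 0 counts in both libraries of the first quantification. The second gave Pex5l-208 0 counts in replicate 2 and 41.4 counts in replicate 1.

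The form with the proximal start and both exons, 1950 coding bases, is shared by Pex5l-209, Pex5l-211 and Pex5l-210. Together they held 15.7% in replicate 2 and 15.8% in replicate 1. Pex5l-209 contributed 9.17% in replicate 2 and 10.2% in replicate 1, and Pex5l-211 5.65% in replicate 2 and 5.60% in replicate 1. The 105-base exon was thus held by 36.8% of the TPM of proximal coding transcripts in replicate 2 and 37.6% in replicate 1 (37.2 ± 0.567%). Pex5l-204, the form with the short proximal first coding exon, held 2.90% in replicate 2 and 1.72% in replicate 1. The second quantification gave Pex5l-204 more, 8.95% in replicate 2 and 10.8% in replicate 1.

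Non-coding Pex5l transcripts all began at the distal first exon. Pex5l-202, a retained-intron form and the only distal transcript annotated with the 72-base and 105-base exons, held 10.9% in replicate 2 and 12.1% in replicate 1. Pex5l-212, an unspliced stretch of 3214 bases that runs from the distal first exon into its intron, held 7.07% in replicate 2 and 5.99% in replicate 1, from 567 and 472 counts. Pex5l-207, a short processed transcript, held 6.40% in replicate 2 and 6.09% in replicate 1. With these included, coding transcripts made up 57.9 ± 0.585% of distal Pex5l TPM, whereas all proximal transcripts were coding.

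**Figure D3:**
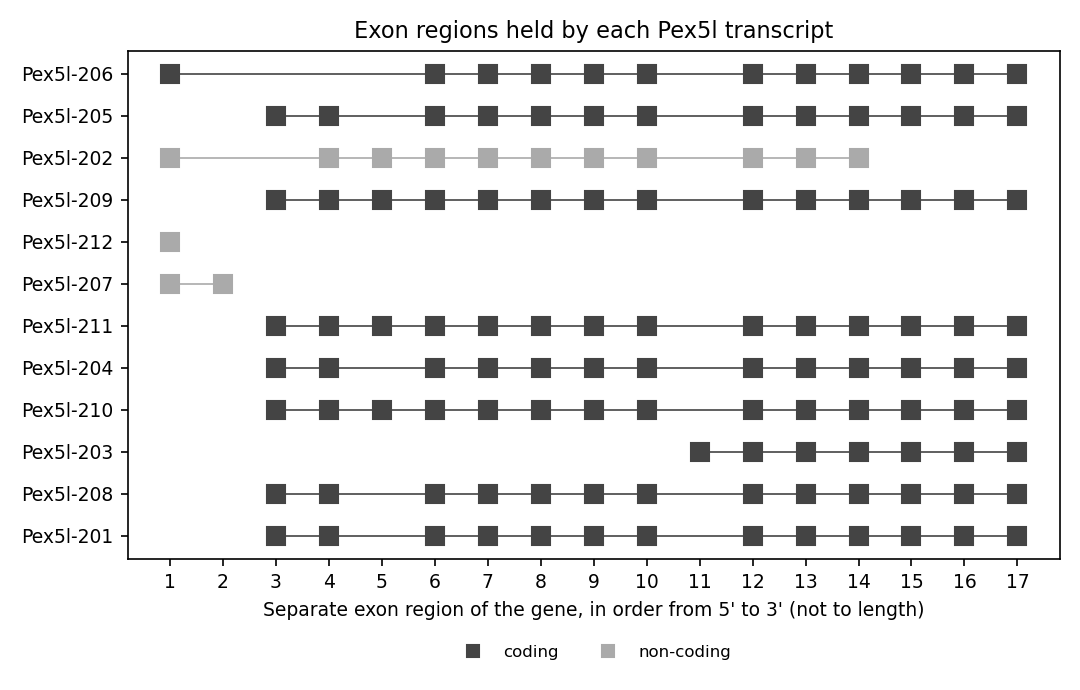
Exon regions (numbered 5′ to 3′, spacing not to length) held by each of the 12 Pex5l transcripts, dark for coding and light for non-coding, in the order of mean share. Region 1 is the distal first exon, 3 the proximal start, 4 the 72-base exon and 5 the 105-base exon, and Pex5l-206 is the only coding transcript that holds region 1.

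The second quantification divided the same reads differently. Pex5l-209 held 19.5% in replicate 2 and 25.2% in replicate 1 (22.4 ± 4.0%, SD, n = 2), and Pex5l-206 held 21.5% and 21.4% (21.4 ± 0.0296%), so Pex5l-206 led in replicate 2 and Pex5l-209 in replicate 1. Pex5l-205 held 9.30 ± 2.61% there, against 24.3 ± 0.262% in the first quantification. Pex5l-203, which starts at an internal exon and has 1032 coding bases, held 11.5 ± 0.912% there and 0 counts in the first quantification in both libraries. As a result the 105-base exon was held by 58.2 ± 4.53% of proximal coding TPM in the second quantification and by 37.2 ± 0.567% in the first. The distal form made up 27.0 ± 0.632% of coding TPM in the second and 44.0 ± 0.786% in the first. Both gaps exceeded the spread between the libraries.

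How far reads can tell the forms apart was measured by counting windows of 100 bases found in 1 transcript only. Pex5l-205, Pex5l-209, Pex5l-208 and Pex5l-201 had 0 such windows, so their shares rest on the quantifiers' models. Pex5l-210 had 99, Pex5l-204 had 98, Pex5l-206 had 95 and Pex5l-203 had 88. The best marked were Pex5l-212 with 2878, Pex5l-202 with 1098, the coding form Pex5l-211 with 685 and Pex5l-207 with 429. Grouped by identical coding sequence, the 1950-base form had 904 windows of its own and the 1845-base form had 0. Of these 4, in the second and first quantification, Pex5l-212 held 5.36% and 6.53% of TPM on average, Pex5l-202 8.04% and 11.5%, Pex5l-211 4.28% and 5.63%, and Pex5l-207 7.14% and 6.24%. Each of these gaps exceeded the SD over the libraries in the first quantification.

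**Figure D4:**
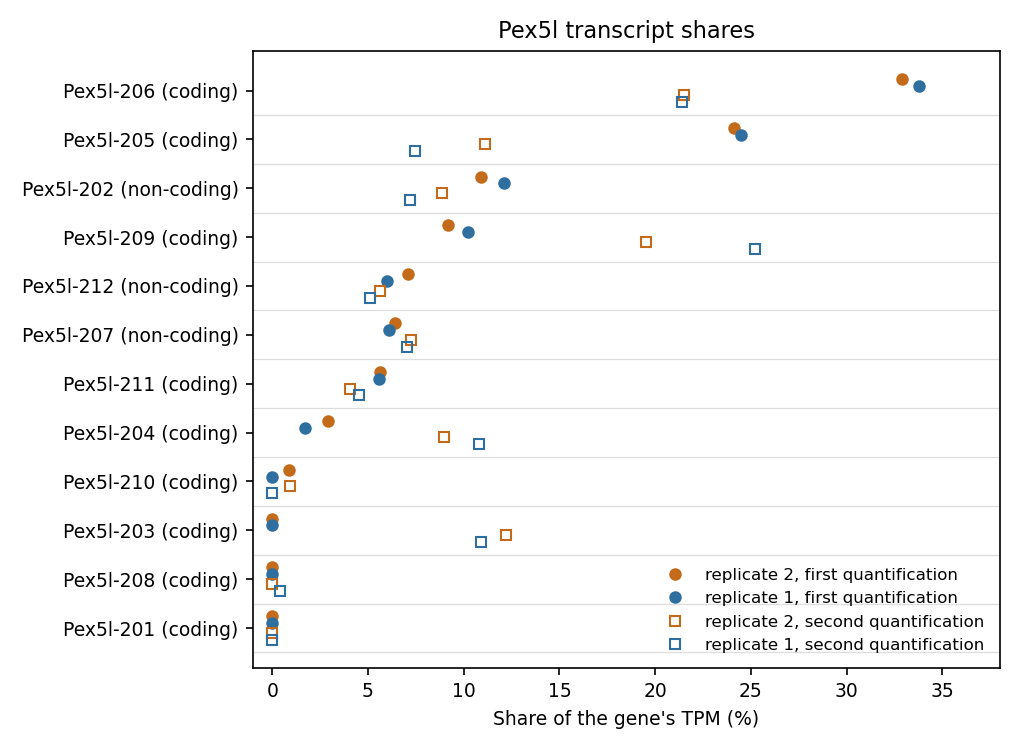
Share of Pex5l TPM (%) held by each of the 12 transcripts, with filled circles for the first and open squares for the second quantification, and replicate 2 plotted above replicate 1. The libraries lie close together within the first quantification, while Pex5l-205, Pex5l-209, Pex5l-206, Pex5l-203 and Pex5l-204 sit far apart between the quantifications.

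Between the libraries, no Pex5l transcript had separate intervals, and neither did any of the other 7 transcripts of the HCN genes. Over all transcripts compared, 1038 of 40526 (2.56%) did. Pex5l-210 had 81.5 counts in replicate 2 and 0 counts in replicate 1, and even this pair of intervals overlapped.

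The genes were then set beside lists of related genes. Pex5l was compared with the peroxisomal import machinery, since it is a relative of Pex5, the receptor that carries matrix proteins with a C-terminal targeting signal to the peroxisome. Pex5 had 20.9 TPM in replicate 2 and 22.6 TPM in replicate 1, and Pex5l exceeded it 5.29-fold (log2 ratios 2.44 in replicate 2 and 2.36 in replicate 1, mean 2.40 ± 0.06, SD, n = 2). All 10 import genes were detected and all 10 lay below Pex5l in both libraries. After Pex5 (21.8 ± 1.24 TPM) the highest were Pex6, an ATPase that recycles the receptor, at 21.1 ± 0.283 TPM and Pex14, a docking protein, at 17.9 ± 1.10 TPM.

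Hcn2 was compared with other channels that carry a cyclic nucleotide-binding domain or its homologue, the CNG and Kcnh (EAG-type potassium channel) families. Of 14 genes, 6 were detected and all 14 lay below Hcn2 in both libraries. The highest were Kcnh3 at 35.0 ± 0.502 TPM, Kcnh7 at 15.3 ± 1.28 TPM and Kcnh1 at 14.2 ± 0.290 TPM (SD, n = 2). Cnga1 and Cngb3, photoreceptor channel subunits, had no counts in either library in the first quantification, where the floor of 3 counts stands for 0.0977 CPM in replicate 2 and 0.102 CPM in replicate 1. The second quantification listed Cngb3 at 0 too but gave Cnga1 a mean of 0.640 TPM, so no upper limit is given for Cnga1. Hcn3 lay below 4 and Hcn4 below 6 of the 14 genes in both libraries.

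Adenylyl cyclases make the cyclic AMP that HCN channels bind. Of 10 genes, 9 were detected, led by Adcy1, the calcium and calmodulin-stimulated neuronal form, at 144 ± 19.6 TPM, followed by Adcy2 at 44.4 ± 1.46 TPM and Adcy9 at 40.4 ± 0.339 TPM (SD, n = 2). Adcy1 was the only one above Hcn2 in both libraries and the only one above Pex5l.

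Of 15 proteins reported to bind or regulate HCN channels, 13 were detected. The receptor tyrosine phosphatase Ptpra had 128 ± 0.806 TPM, the ubiquitin ligase Nedd4l 109 ± 14.6 TPM and the neuronal adaptor Apba2 99.6 ± 3.32 TPM (SD, n = 2). Pex5l lay above 13 of the 15 in both libraries and below Ptpra in both, and Nedd4l lay above it in replicate 2 only. The channel accessory subunit Kcne2 (11 and 14 counts in replicates 2 and 1) and the muscle caveolin Cav3 (7 and 3 counts) were below 1 TPM.

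Median levels were 32.3 TPM in replicate 2 and 32.8 TPM in replicate 1 over the HCN partners, 19.7 and 19.2 TPM over the cyclases, 10.6 ± 0.502 TPM (SD, n = 2) on average over the import genes and 0.450 and 0.355 TPM over the 14 channels. The median over all nuclear protein-coding genes was 3.25 TPM, so the channel list was the one of the 4 whose median lay below it. Of the list genes at a mean of at least 1 CPM, 0 differed between the libraries by a log2 ratio of 1 or more, against 0.529% of all such genes. Cav3, below that level, had a log2 ratio of 1.04 on 7 and 3 counts. The median log2 ratio of replicate 2 to replicate 1 was −0.00 over 13 HCN partners, 0.01 over 10 import genes, −0.02 over 8 channels and −0.08 over 9 cyclases, against −0.006 over all genes.

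**Figure D5:**
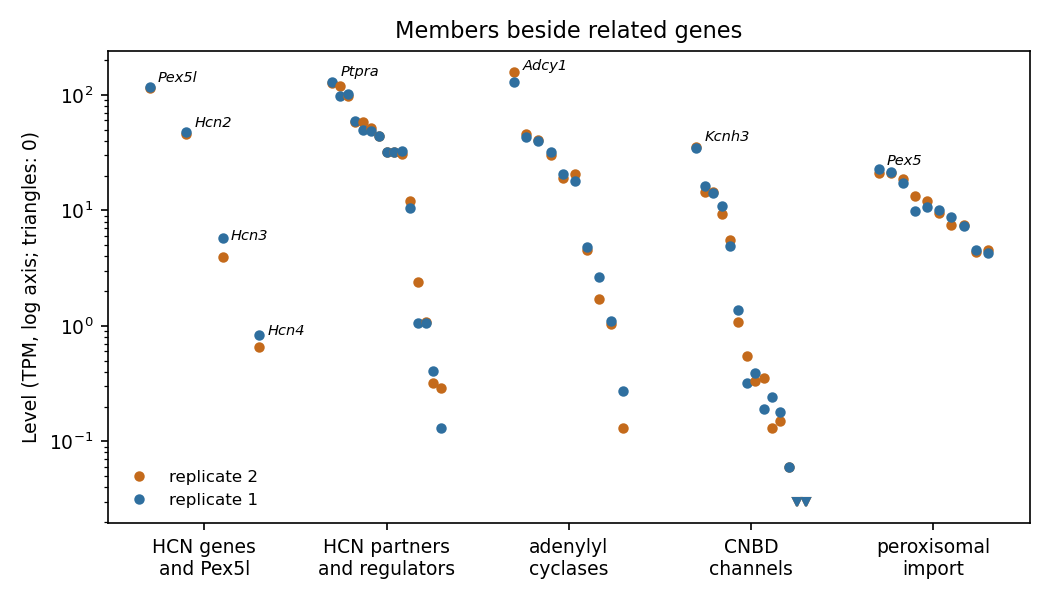
Level in TPM (log axis) of Pex5l and the 3 HCN genes beside every gene of the 4 lists, with orange for replicate 2 and blue for replicate 1 and triangles for 0 in both. Hcn2 lies above all 14 other channels with a cyclic nucleotide-binding or homologous domain (CNBD), and Pex5l above all 10 import genes.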

How the data were processed

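Total RNA of mouse hippocampus was sequenced in 2 libraries, with ERCC spike-ins per the labels. The deposited gene and transcript tables have the columns that RSEM writes. Per the file headers these are expected counts, TPM and, entered as a score, both ends of an interval around TPM, which is read here as the authors' 95% interval. Estimated counts and TPM in the columns of kallisto were deposited as well, per transcript, and were summed here per gene as the second quantification. Assembly mm10 and annotation M21 are named in the accompanying notes. The software and strand setting are not given in the sources used here, and no allele was separated, so any effect of CAST alleles on read assignment was not tested.

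The 4 genes and the gene lists were chosen with earlier results of these data known. The text names the 4 genes, the 3 highest genes of each list, list genes at 0 counts in both libraries and transcripts with a share of at least 5%, plus the next coding one; other genes and transcripts named were chosen after their values were seen. Members were joined by Ensembl identifier, since the RefSeq gene table lists Hcn3 and Hcn4 as older names of each other. The 97 spike-in entries (0.368% and 0.378% of counts in replicates 2 and 1) and 26248 tRNA entries (6.99 and 4.00 counts) stayed out of library sizes.

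Levels are means ± SD over the libraries. Pair ratios were taken within each library. Replicate ratios used expected counts plus 0.5 over TMM-scaled library sizes (edgeR 4.0.16, R 4.3.3) at a mean of 1 CPM or more, and the calculation was tested on simulated data. No p-values were computed. The libraries' spread beyond counting error was a coefficient of variation of 4.86% over 17782 genes (square root of the edgeR common dispersion). A count of 0 was given a floor of 3 counts, and intervals and floors cover counting error only. Windows of 100 bases, the length implied by length minus effective length, were counted on M21 transcripts. Coding sequences were aligned with Biopython 1.88. Other steps ran in Python 3.11.15 with scipy 1.17.1, pandas 2.3.3 and numpy 2.4.6, and figures in matplotlib 3.10.9. Alternatives were DESeq2 1.42.0 size factors, library totals, other pseudocounts and filters, the second quantification, TPM over nuclear protein-coding genes, shares of counts and each replicate left out.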

Additional observations from a re-analysis of the deposited data

How the results depend on the processing

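No paired analysis was possible because the series holds 1 group. Of 76 alternative values that kept both libraries, 35 were counted as unmoved and 41 as moved. Levels, pair ratios and shares were judged against the SD over the libraries, and replicate ratios against their counting interval. Numbers of genes apart were judged by a fold limit, and order and leading transcripts by equality. The 60 values with 1 library left out equal the other library's own value and, with 2 libraries, cannot move by more than the SD, so they say nothing about stability. The order Pex5l, Hcn2, Hcn3, Hcn4 held in the second quantification, the only alternative run for it that kept both libraries. TPM over nuclear protein-coding genes only, a smaller denominator by construction, gave 285 for Pex5l, 116 for Hcn2, 12.1 for Hcn3 and 1.83 for Hcn4. The second quantification gave 203, 75.2, 7.18 and 1.15 TPM for them (the cause was not tested). In the second quantification the log2 ratio of Pex5l was 1.44 to Hcn2, 1.29 to the HCN sum and 2.50 to Pex5 (the cause was not tested). Adding 1 TPM before taking ratios pulls low genes together by construction and gave 1.28 for Pex5l over Hcn2, 1.74 for Hcn3 over Hcn4 and 4.79 for Hcn2 over Hcn4. Pex5l shares also moved: the distal form of coding TPM was 27.0% in the second quantification and 38.1% of expected counts, the 105-base exon of proximal coding transcripts 58.2% and 42.2%, and coding transcripts 79.5% and 80.9%. The leading transcript was the same for 3 of 4 genes in the second quantification, with Pex5l the exception (the cause was not tested). Hcn4, with 1 annotated transcript, could not differ. Shares of counts favour longer transcripts by construction, and Hcn3-201 held 92.2% of counts against 68.5% of TPM. Genes apart by a log2 ratio of 1 numbered 5649 of 27825 (20.3%) with no filter, where genes of a few counts enter, and 18 of 11659 (0.154%) at 5 CPM or more; DESeq2 size factors gave 82 and the second quantification 72. The replicate ratio of Hcn4 stayed between −0.39 and −0.36, that of Hcn3 between −0.16 and −0.09, that of Hcn2 between −0.05 and −0.04 and that of Pex5l between −0.04 and −0.03. Depth limits Hcn4, with 88 and 109 counts in replicates 2 and 1, and the non-coding Hcn3 transcripts.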

Other observations

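Other annotated genes overlap or lie within Pex5l. On the same strand, 2 unspliced entries of unsettled status lie in its introns: Gm19445 had 175 counts in replicate 2 and 150 in replicate 1 (3.31 and 2.95 TPM), and Gm37443 had 130 and 124 counts (2.11 and 2.09 TPM). On the opposite strand, Gm37459 shares 340 exon bases with Pex5l and had 3 counts in replicate 2 and 2 in replicate 1. The antisense gene 4930419G24Rik shares 24 bases with the 105-base exon and had 1 count in replicate 2 and 0 in replicate 1. Reads from a gene and its antisense partner can be told apart only if strand was used in counting, and the sources used here do not give the strand setting.

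Lrmp, which encodes an endoplasmic reticulum protein known to bind Hcn4 subunits, showed the widest gap among the detected HCN partners, with 72 counts in replicate 2 and 36 in replicate 1 (log2 ratio 0.93). Hcn4 itself was lower in replicate 2. Each is a difference of 1 library against 1 library, named after its value was seen. Pex5 had a log2 ratio of −0.14 with a counting interval of −0.26 to −0.03, so of the genes given an interval it was the 1 whose interval did not hold 0.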
